A study of Mus musculus with 20 samples.

Results

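Lung cells kept on flat tissue culture plastic were compared with lung cells that were never cultured, using RNA sequencing of 8 of the 20 libraries in the study. The 4 libraries labelled 2D-2D come from male C57BL/6 mouse lungs, normal and not treated with any chemical. Their collagenase digests were plated without sorting on 2D plastic for 4 days, then passaged onto 2D plastic again for 2 days. The 4 libraries labelled Sort_Fib, from the same strain, sex and tissue, are collagenase digests from which paramagnetic particles removed CD45+, EpCAM+ and CD31+ cells (leukocytes, epithelial and endothelial cells), and the flow-through was collected with no culture. The other 12 libraries are cultures that spent a step in a 3D collagen hydrogel (2D-3D, 3D-2D and 3D-3D, 4 each). Sorting and culture therefore both differ between the 2D-2D and Sort_Fib groups and cannot be told apart, and the labels give no animal ages and do not say whether libraries of a group come from separate animals. P-values then measure the spread between libraries only, estimated from all 20 libraries of the study together. Members were chosen by label, and all genes with values entered: 18012 genes, of which 14715 passed the filter on low counts and were tested.

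Fibroblasts build and repair the collagen and elastin scaffold of the lung. On a stiff flat surface they are known to spread, assemble stress fibres and switch on smooth muscle genes, a state called the myofibroblast, through SRF and its MRTF cofactors, YAP and TAZ, and TGF-beta signalling. In the intact lung, alveolar fibroblasts lie beside the gas exchange surface and store lipid and retinoid, and adventitial fibroblasts surround large vessels and airways. Culture is also known to bring quiescent fibroblasts into the cell cycle.

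The 2D-2D libraries held 19773249 to 20328950 counts and the Sort_Fib libraries 11662513 to 13951809, with 14839 to 14972 genes detected in 2D-2D and 15945 to 16277 in Sort_Fib. Within 2D-2D, replicate 4 stood most apart: its counts differed from those of the other 3 by a chi-square of 10.4 to 21.7 per degree of freedom, while pairs among replicates 1 to 3 gave 4.70 to 13.2, and the Sort_Fib pairs gave 2.80 to 5.55. Levels below are CPM (counts scaled to a common library size), scaled by edgeR's TMM factors. A log2 fold change is 2D-2D minus Sort_Fib, given with its standard error. A gene rose or fell when edgeR's quasi-likelihood test gave an adjusted p below 0.05. By that rule 5669 genes rose (38.5% of those tested) and 6787 fell (46.1%), 84.6% in all. With a change tested to be above 2-fold, 2488 rose (16.9%) and 4052 fell (27.5%), 44.4% in all. Scaled by library size alone, 4442 rose and 8026 fell, 1714 and 4881 of them by more than 2-fold, and the median over all genes moved by -0.32 from its main value of -0.17. The libraries of the groups did not overlap for 82.9% of the genes tested, so a call or a lack of overlap is in itself the common case here, and sizes and the balance of directions carry the description.

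**Figure D1:**
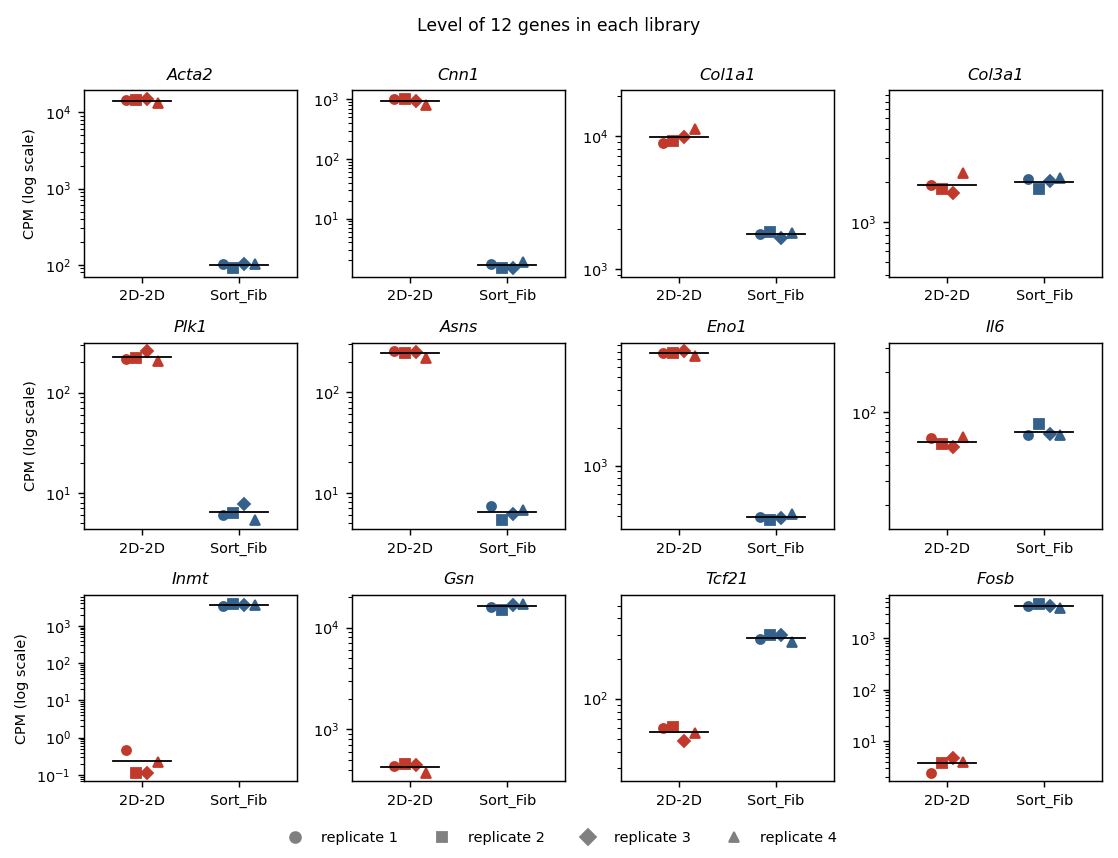
Levels of 12 genes in each library, in CPM on log axes, with 2D-2D on the left and Sort_Fib on the right of each panel; symbols are replicates and the black line is the mean of 4 libraries. Acta2 and Cnn1 are far higher in 2D-2D, Inmt and Fosb far lower, and Col3a1 overlaps between the groups.

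The labelled cell type was checked first. Markers shared by most fibroblasts were abundant as a sum in both groups: the list of 12 took 1.92 to 2.41% of counts in 2D-2D and 1.44 to 1.55% in Sort_Fib. Of the 12, 6 rose and 5 fell, 4 each way by more than 2-fold, so the sum joins opposite changes. Col1a1, Col1a2 and Vim were among those that rose, and Dcn, Lum and Pdgfra, given below, among those that fell. Vim, an intermediate filament gene of mesenchymal cells, averaged 3109 ± 225 CPM in 2D-2D and 2458 ± 60.2 CPM in Sort_Fib (SD, n = 4 each). Endothelial markers were still present in the sorted cells. The 23 genes together took 0.0117 to 0.0145% of counts in 2D-2D and 0.437 to 0.450% in Sort_Fib, and all 23 fell. Pecam1, which encodes CD31 and so marks the cells the particles were to remove, averaged 1.02 ± 0.326 CPM in 2D-2D and 395 ± 16.9 CPM in Sort_Fib. Lymphocyte markers were close to absent from the cultures: 12 of 18 had no count in any 2D-2D library, and the list took 0.000590 to 0.000774% of counts there, against 0.0896 to 0.0996% in Sort_Fib. Cd79a, a B cell receptor subunit, averaged 0.187 ± 0.143 CPM in 2D-2D and 363 ± 25.9 CPM in Sort_Fib. Airway epithelial markers showed the same pattern in their share, with 0.00129 to 0.00163% in 2D-2D and 0.186 to 0.228% in Sort_Fib. Of these 18 markers 15 fell and 3 were not called, and 7 were at 0 in 2D-2D. In these bulk libraries, fewer cells of a type and less RNA per cell cannot be told apart.

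Macrophage markers did not disappear in culture. They took 0.820 to 1.02% of counts in 2D-2D and 0.931 to 0.981% in Sort_Fib, overlapping ranges, and the cultures had not been depleted of CD45+ cells. Of the 23 markers 11 rose and 12 fell, so the sum joins opposite changes. Lyz2, the lysozyme gene of macrophages and neutrophils, was at 5875, 4969.6, 3724 and 4601 CPM in the 2D-2D libraries and 3363, 3155, 3463 and 3332 CPM in the Sort_Fib libraries. Each 2D-2D library was above every Sort_Fib library, with a log2 fold change of 0.53 ± 0.12, which was 0.20 and not called with library size alone as the scaling. Ptprc, which encodes CD45 itself, moved the other way: it averaged 19.6 ± 3.01 CPM in 2D-2D and 395 ± 17.6 CPM in Sort_Fib, a log2 fold change of -4.33 ± 0.13. The complement C1q chain genes C1qa, C1qb and C1qc, chosen after their values were seen, had log2 fold changes of 3.71, 4.58 and 4.43, while those of the alveolar macrophage genes Siglecf and Chil3 were -4.96 and -7.38. Among neutrophil markers 2 of 13 tested rose and 9 fell, and the list took 0.0530 to 0.0578% of counts in 2D-2D and 0.0814 to 0.0859% in Sort_Fib. The 2 that rose, the metalloprotease genes Mmp9 and Mmp8, averaged 492 ± 18.3 and 132 ± 17.3 CPM in 2D-2D and 68.2 ± 6.81 and 20.9 ± 1.55 CPM in Sort_Fib, and make up most of the list's share in 2D-2D. The median log2 fold change of the list was -6.32, and Csf3r, the G-CSF receptor, averaged 4.13 ± 0.439 CPM in 2D-2D and 330.1 ± 7.62 CPM in Sort_Fib. Every gene that other lung cells also express has to be read beside these shares; their part in the results below was not tested.

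**Figure D2:**
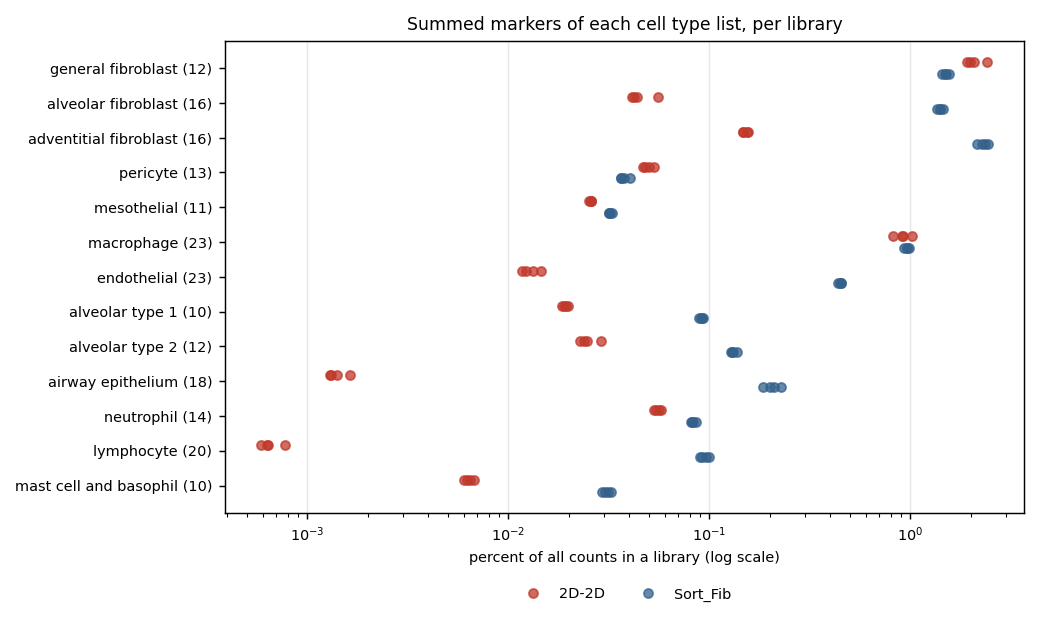
Percent of all counts taken by the markers of each cell type list (number of genes listed in brackets), 1 point per library on a log axis, 2D-2D above Sort_Fib. Endothelial, lymphocyte and airway epithelial markers are lower in 2D-2D by more than 10-fold, alveolar and adventitial fibroblast markers are also far lower, and the macrophage points overlap.

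Smooth muscle contractile genes had the highest median of the functional lists: of 16, 13 rose and 3 fell, with a median log2 fold change of 3.94, against -0.17 over all genes. The 13 that rose all did so by more than 2-fold. Acta2, which encodes alpha smooth muscle actin, the defining stress fibre protein of myofibroblasts, was at 14441, 14543, 15029 and 13149 CPM in the 2D-2D libraries and 103, 90.6, 101 and 101 CPM in the Sort_Fib libraries. Each culture was far above every uncultured library. Its log2 fold change was 7.17 ± 0.21 (adjusted p = 1.26e-19, edgeR's quasi-likelihood test). Cnn1, calponin, an actin-binding regulator of contraction, stood at 1022, 1013, 939 and 801 CPM in 2D-2D and 1.74, 1.51, 1.49 and 1.87 CPM in Sort_Fib. It was close to absent from Sort_Fib, and its log2 fold change of 9.16 ± 0.25 was the largest of the list. Actg2, the gamma actin of visceral smooth muscle, averaged 676 ± 69.4 CPM in 2D-2D and 2.81 ± 0.528 CPM in Sort_Fib (log2 fold change 7.9 ± 0.24). Tagln, transgelin, averaged 3614 ± 133 CPM in 2D-2D and 110.1 ± 5.42 CPM in Sort_Fib (log2 fold change 5.04 ± 0.15).

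The 3 that fell were Myocd, Mylk and Synpo2. Myocd, myocardin, the SRF cofactor of differentiated smooth muscle, averaged 0.101 ± 0.166 CPM in 2D-2D and 1.08 ± 0.508 CPM in Sort_Fib (log2 fold change -3.35 ± 0.77). Mylk, the kinase that phosphorylates myosin light chain, had a log2 fold change of -0.23 ± 0.09, and Synpo2, an actin-bundling protein, of -0.74 ± 0.28. The calls of Mylk and Synpo2 were each lost in 3 of the 8 fits that leave out a library, with adjusted p up to 0.0776 and 0.0602 (edgeR's quasi-likelihood test). Myh11, the myosin heavy chain of mature smooth muscle, rose to 129 ± 12.4 CPM in 2D-2D, against 21.4 ± 1.38 CPM in Sort_Fib. Pericyte markers, which smooth muscle partly shares, took 0.0470 to 0.0531% of counts in 2D-2D and 0.0364 to 0.0402% in Sort_Fib, with 2 of 11 tested higher and 8 lower.

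Promoters of contractile genes are a known place of SRF action, through the CArG box. The RefSeq promoter table (GRCm38.p6) was searched on both strands over the 250 bases before each start. Only the strict form CCWWWWWWGG (W is A or T) was counted, so a box with a mismatch would be missed. By that form 2 of the 12 contractile genes with an entry held a CArG box (16.7%), against 1.62% of 27025 genes. They are Myl9, the regulatory light chain of smooth muscle myosin, and Ldb3, a Z-disc protein. Their sequences are printed 5′ to 3′ on the gene's strand with the CArG box in capitals, for Myl9 from chr2:156775273-156775342 (plus strand) and for Ldb3 from chr14:34588682-34588746 (minus strand).
Myl9: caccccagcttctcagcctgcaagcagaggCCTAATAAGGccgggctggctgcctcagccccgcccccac
Ldb3: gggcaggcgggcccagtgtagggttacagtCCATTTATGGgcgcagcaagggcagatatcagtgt
Myl9 averaged 1335 ± 100.01 CPM in 2D-2D and 52.4 ± 3.98 CPM in Sort_Fib, a log2 fold change of 4.67 ± 0.17, and Ldb3 10.1 ± 1.41 CPM in 2D-2D and 1.02 ± 0.165 CPM in Sort_Fib (3.29 ± 0.34). Neither gene was among those the naming rule picked; they are shown for their promoters. Contractile genes with an entry but without the strict form in this window, such as Acta2 and Cnn1, rose as well. The match is therefore a description of the sequence alone.

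The wider actin system moved the same way. Of 20 actin and focal adhesion genes, 19 rose, 15 of them by more than 2-fold, with a median log2 fold change of 1.73. Flnc, a filamin that crosslinks actin, had the largest change: it averaged 336 ± 29.5 CPM in 2D-2D and 10.5 ± 1.12 CPM in Sort_Fib (log2 fold change 5.01 ± 0.12). Fhl2, a LIM protein of stress fibres and focal adhesions, averaged 42.2 ± 6.21 CPM in 2D-2D and 1.53 ± 0.220 CPM in Sort_Fib (4.78 ± 0.24). The gene that fell was Pxn, the focal adhesion adaptor paxillin, by 0.6 on the log2 scale.

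Genes that sense or relay mechanical force were less uniform. Of 24 such genes, 13 rose and 5 fell, a balance that differs less from that over all genes. The TEAD transcription factors, DNA-binding partners of YAP, led the gains: Tead1 averaged 230.2 ± 43.9 CPM in 2D-2D and 30.98 ± 2.58 CPM in Sort_Fib (log2 fold change 2.89 ± 0.15), and Tead2 changed by 2.43 ± 0.08. Mkl1, which encodes the MRTF-A cofactor of SRF, changed by 2.21 ± 0.1. The caveolin genes fell: Cav1, the coat protein of caveolae, averaged 98.4 ± 3.77 CPM in 2D-2D and 393 ± 26.4 CPM in Sort_Fib (-1.999 ± 0.14), and Cav2 changed by -2.79 ± 0.13. Cav1 is also abundant in endothelial cells, whose markers fell as given above, and their part in this change was not tested. YAP and TAZ target genes split, with 12 of 22 higher and 7 lower, against 38.5% and 46.1% of all genes tested. Ankrd1, a nuclear ankyrin repeat protein and widely used YAP readout, averaged 137 ± 11.8 CPM in 2D-2D and 1.69 ± 0.397 CPM in Sort_Fib (6.33 ± 0.23). Ctgf, the matricellular CCN2 gene, was at 1227, 1373, 1356 and 1267 CPM in the 2D-2D libraries and 407, 432, 410.2 and 400.1 CPM in the Sort_Fib libraries, a log2 fold change of 1.66 ± 0.11 with no overlap between groups. Igfbp3, an IGF-binding protein on the same list, changed by -3.89 ± 0.21.

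Matrix genes moved in both directions. Of 33 collagens and structural matrix genes, 17 rose and 15 fell, near the shares over all genes, and the median of 0.39 became 0.07 when libraries were scaled by size alone. Col1a1, the main chain of fibrillar collagen I, was at 8767, 9116, 9789.5 and 11334 CPM in 2D-2D and 1844, 1897, 1696 and 1872 CPM in Sort_Fib. Every culture exceeded every uncultured library, and 2D-2D replicate 4 was the highest (log2 fold change 2.42 ± 0.12). Col3a1, the fibrillar collagen that accompanies it, was at 1898, 1764, 1634 and 2312 CPM in 2D-2D and 2087, 1777, 2044 and 2122 CPM in Sort_Fib. The groups overlapped, and the log2 fold change of -0.08 ± 0.12 did not pass the test (adjusted p = 0.55, edgeR's quasi-likelihood test). With library size alone as the scaling it was -0.40, with an adjusted p of 0.00423 in the same test. The largest gains were in Col11a1, a minor fibrillar collagen that nucleates thin fibrils (8.24 ± 0.32), in Tnc, the matricellular protein tenascin C (6.29 ± 0.14), and in Spp1, osteopontin (5.13 ± 0.12). Tnc averaged 2431 ± 294 CPM in 2D-2D and 30.99 ± 2.38 CPM in Sort_Fib. Spp1 is also made by macrophages, whose markers moved in both directions as given above, and their part was not tested.

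Among the genes that fell was Eln, elastin, the core of elastic fibres. It was at 11.4, 7.94, 9.49 and 16.4 CPM in the 2D-2D libraries and 877, 850.5, 902 and 816 CPM in the Sort_Fib libraries. It was detectable in every 2D-2D library but at a small part of its level in Sort_Fib, with a log2 fold change of -6.25 ± 0.21. The small leucine-rich proteoglycans Lum (lumican) and Ogn (osteoglycin), which space collagen fibrils, changed by -5.57 ± 0.2 and -5.45 ± 0.3. Lum averaged 1.89 ± 0.726 CPM in 2D-2D and 90.4 ± 9.63 CPM in Sort_Fib. Of 17 basement membrane genes, 6 rose and 10 fell, with a median of -1.28. Nid2, nidogen 2, rose (log2 fold change 4.98 ± 0.21), while Col4a4, a collagen IV chain of the alveolar basement membrane, averaged 0.115 ± 0.0479 CPM in 2D-2D and 12.7 ± 0.253 CPM in Sort_Fib (-6.71 ± 0.57). Alveolar type 1 markers, cells known to make that chain, took 0.0185 to 0.0198% of counts in 2D-2D and 0.0891 to 0.0930% in Sort_Fib; their part in it was not tested.

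By contrast, the enzymes and chaperones that process collagen rose nearly throughout. Of 18, 17 rose, 12 by more than 2-fold, and the median was 1.52. P4ha2, a prolyl hydroxylase subunit, averaged 187 ± 9.48 CPM in 2D-2D and 10.3 ± 0.433 CPM in Sort_Fib (log2 fold change 4.18 ± 0.2). The lysyl oxidase family members Loxl3 and Loxl2, which crosslink collagen and elastin, changed by 2.88 ± 0.11 and 2.82 ± 0.13. Pcolce, an enhancer of procollagen C-terminal cleavage, was the gene that fell, by 0.19 on the log2 scale, a call lost in 4 of the 8 fits that leave out a library. Matrix proteases and their inhibitors gave 11 of 24 higher and 11 lower, near the 38.5% and 46.1% of all genes tested. Mmp10 (stromelysin 2) averaged 122 ± 5.61 CPM in 2D-2D and 0.176 ± 0.0321 CPM in Sort_Fib (9.38 ± 0.21), and the collagenase Mmp13 changed by 7.07 ± 0.2. Mmp2, the gelatinase that quiescent fibroblasts secrete, averaged 49.4 ± 4.95 CPM in 2D-2D and 592 ± 18 CPM in Sort_Fib (-3.58 ± 0.1). The inhibitors moved in opposite directions: Timp1 averaged 1271 ± 147 CPM in 2D-2D and 43.7 ± 2.41 CPM in Sort_Fib, while Timp3, which binds to the matrix, averaged 90.1 ± 8.88 CPM in 2D-2D and 1493 ± 34.4 CPM in Sort_Fib. Hyaluronan genes also moved in both directions, 3 of 9 tested higher and 5 lower, against 38.5% and 46.1% of all genes tested. Cemip, a hyaluronan-degrading protein, was at 802, 862, 870.03 and 1078 CPM in the 2D-2D libraries and 2.37, 1.57, 2.69 and 1.72 CPM in the Sort_Fib libraries (8.75 ± 0.24). The synthase genes Has2 and Has1 changed by 3.39 ± 0.19 and -6.44 ± 0.29.

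Genes that mark activated fibroblasts in fibrotic lung rose for the most part, 11 of 14, with a median of 3.01. Grem1, a secreted BMP antagonist, was at 88.2, 101, 103 and 128 CPM in 2D-2D and 0.0697, 0.393, 0.283 and 0.156 CPM in Sort_Fib, where it was near the limit of detection (log2 fold change 8.8 ± 0.25). Cthrc1, the collagen triple helix repeat gene used to mark such cells, averaged 7.89 ± 1.13 CPM in 2D-2D and 1.27 ± 0.325 CPM in Sort_Fib (2.63 ± 0.21). Postn, periostin, another widely used marker, fell and averaged 6.85 ± 1.64 CPM in 2D-2D and 62.9 ± 2.8 CPM in Sort_Fib (-3.2 ± 0.15). Runx1, a transcription factor, also fell (-0.66 ± 0.09).

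**Figure D3:**
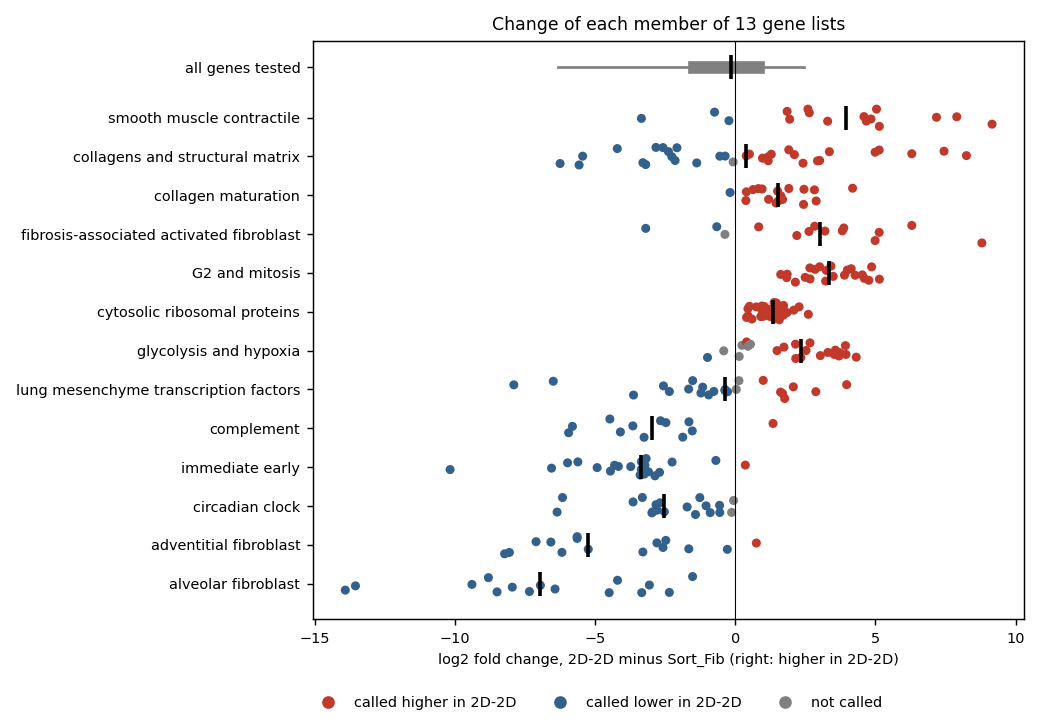
Log2 fold change (2D-2D minus Sort_Fib) of each member of 13 gene lists; the black tick is the median of the points shown. The grey bar gives the 25 to 75% range and the line the 5 to 95% range of all genes tested, and 4 genes with no count in a group are left out. Contractile, mitotic and collagen maturation genes lie to the right, and immediate early, clock and both fibroblast subtype lists to the left.

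The markers of the lung's own fibroblast subtypes were largely lost. All 16 alveolar fibroblast markers fell, each by more than 2-fold, with a median log2 fold change of -7.15, and together they took 0.0413 to 0.0555% of counts in 2D-2D and 1.36 to 1.45% in Sort_Fib. Inmt, an N-methyltransferase gene prominent in mouse lung fibroblasts, was at 0.464, 0.114, 0.116 and 0.226 CPM in the 2D-2D libraries and 3407, 3947, 3697 and 3528 CPM in the Sort_Fib libraries. It was among the most strongly reduced genes of the whole table and close to absent from all 4 cultures (log2 fold change -13.91 ± 0.28). Mfap4, a protein of elastic microfibrils, averaged 19.5 ± 4.69 CPM in 2D-2D and 3172 ± 305 CPM in Sort_Fib (-7.34 ± 0.23). Npnt, the integrin alpha8 ligand nephronectin, changed by -3.07 ± 0.11. Tcf21, a transcription factor of lipid-storing lung fibroblasts, was at 59.9, 61.5, 47.9 and 55.1 CPM in 2D-2D and 281, 299.5, 299 and 268 CPM in Sort_Fib; its log2 fold change of -2.35 ± 0.11 was small within the list. Pdgfra, the PDGF receptor of alveolar fibroblasts, averaged 179 ± 17.98 CPM in 2D-2D and 514 ± 21.8 CPM in Sort_Fib (-1.53 ± 0.1), whereas Pdgfrb, the receptor of pericytes and activated fibroblasts, changed by 1.54 ± 0.09.

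Adventitial markers followed: 15 of 16 fell, 14 by more than 2-fold, with a median of -5.44 and a share of 0.147 to 0.156% in 2D-2D and 2.16 to 2.44% in Sort_Fib. Gsn, the actin-severing protein gelsolin, was at 438, 454, 441 and 374 CPM in the 2D-2D libraries and 15798, 15033, 16733 and 17199.7 CPM in the Sort_Fib libraries (log2 fold change -5.25 ± 0.11). Pi16, a marker of adventitial progenitor-like fibroblasts, stood at 3.94, 4.63, 3.297 and 4.19 CPM in 2D-2D and 550.5, 503, 579 and 585 CPM in Sort_Fib (-7.11 ± 0.15). Ly6a (Sca-1) and Cd34, surface markers shared with endothelial cells, changed by -5.64 ± 0.19 and -8.23 ± 0.19. The exception was Serpinf1, pigment epithelium-derived factor, which rose to 799.6 ± 34.8 CPM in 2D-2D, against 475 ± 16.8 CPM in Sort_Fib (0.75 ± 0.07). All 8 peribronchial myofibroblast markers tested fell as well. Transcription factors of the lung mesenchyme divided, 7 of 23 higher and 14 lower, against 38.5% and 46.1% of all genes tested. Gli1, the hedgehog effector, and Meox1 and Meox2, homeobox genes, changed by -7.9 ± 0.21, -6.49 ± 0.41 and -3.63 ± 0.14. Twist1 and Prrx1, factors of embryonic and activated mesenchyme, rose: Twist1 averaged 14.5 ± 1.99 CPM in 2D-2D and 0.913 ± 0.109 CPM in Sort_Fib (3.97 ± 0.18), and Prrx1 changed by 2.87 ± 0.09. Of 15 tested lipid storage genes, 3 rose and 9 fell. Pparg, the nuclear receptor of lipid-storing cells, changed by -2.94 ± 0.14, and Fabp5, a fatty acid carrier, by 3.09 ± 0.11.

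Cell cycle genes rose. All 23 S phase genes and all 22 G2 and mitosis genes rose, with medians of 2.5 and 3.33, and every G2 and mitosis gene did so by more than 2-fold. Plk1, the polo-like kinase that drives mitotic entry, was at 215, 222, 258 and 207 CPM in 2D-2D and 6.06, 6.35, 7.78 and 5.31 CPM in Sort_Fib. The lowest culture was far above the highest uncultured library (log2 fold change 5.14 ± 0.12). Mki67, the proliferation antigen Ki-67, changed less: it averaged 183 ± 47.9 CPM in 2D-2D and 51.3 ± 3.16 CPM in Sort_Fib (1.83 ± 0.18). Ccne1, cyclin E1, which starts S phase with CDK2, averaged 65.1 ± 6.25 CPM in 2D-2D and 2.99 ± 0.700 CPM in Sort_Fib (4.44 ± 0.17). Inhibitors and p53 targets split, 11 of 21 higher and 8 lower, against 38.5% and 46.1% of all genes tested. Cdkn2a, the locus of p16INK4a and p19ARF, averaged 7.12 ± 1.36 CPM in 2D-2D and 0.538 ± 0.210 CPM in Sort_Fib (3.69 ± 0.29), and Cdkn1c, the p57 inhibitor of quiescent cells, changed by -2.96 ± 0.17.

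Many mitotic genes carry the cell cycle homology region (CHR), TTTGAA, where the MuvB complexes bind. In the same promoter table, searched on both strands over 250 bases, it stood in 7 of the 17 G2 and mitosis genes with an entry (41.2%), against 18.3% of 27025 genes. The motif is short and its share in all promoters is accordingly high. No promoter shown here with a CArG box held it. Of the genes that hold it, Cdk1 (the mitotic kinase), Cdc20 (an activator of the anaphase-promoting complex) and Mki67 are shown from chr10:69352913-69353013, chr4:118437344-118437391 and chr7:135716438-135716525 of GRCm38.p6, all on the minus strand and 5′ to 3′, with the motif in capitals.
Cdk1: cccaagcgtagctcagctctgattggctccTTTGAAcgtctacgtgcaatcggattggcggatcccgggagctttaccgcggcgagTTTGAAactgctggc
Cdc20: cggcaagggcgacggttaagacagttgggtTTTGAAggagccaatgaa
Mki67: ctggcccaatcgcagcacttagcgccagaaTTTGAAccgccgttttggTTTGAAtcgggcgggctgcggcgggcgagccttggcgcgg
Cdk1 averaged 114 ± 11.4 CPM in 2D-2D and 3.91 ± 0.510 CPM in Sort_Fib (log2 fold change 4.86 ± 0.18), and Cdc20 averaged 114 ± 10.5 CPM in 2D-2D and 4.91 ± 0.831 CPM in Sort_Fib (4.53 ± 0.14). Members with an entry but without the motif in this window rose too.

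Immediate early genes, transcription factors and feedback regulators that cells switch on within minutes of a stimulus, were the reverse: 21 of 22 fell, 20 by more than 2-fold, and the median was -3.35. They took 0.254 to 0.300% of counts in 2D-2D and 4.64 to 5.21% in Sort_Fib. The Sort_Fib cells were collected after digestion and particle depletion with no culture. The 2D-2D cells had 4 and then 2 days on plastic after digestion. Effects of that handling and of culture cannot be told apart, here or for the heat shock genes below. Fosb, an AP-1 subunit, was at 2.44, 3.71, 4.63 and 4.02 CPM in the 2D-2D libraries and 4270.2, 4713, 4212 and 3930.1 CPM in the Sort_Fib libraries (log2 fold change -10.17 ± 0.7). Fos changed by -6.56 ± 0.3. Egr1, a zinc finger factor, stayed readily detectable in culture at 580.1 ± 149.8 CPM in 2D-2D, against 5482 ± 711 CPM in Sort_Fib (-3.24 ± 0.23). Myc, the growth regulator, was the gene that rose, by 0.36 ± 0.09, and its change was 0.03 and not called with library size alone as the scaling. The heat shock list split, 4 of 12 higher and 7 lower, against 38.5% and 46.1% of all genes tested. The inducible Hsp70 genes Hspa1a and Hspa1b changed by -5.55 and -4.72, though these near-identical copies share reads and their separate values are uncertain. Mitochondrial chaperone genes Hspe1 and Hspd1 rose (1.6 ± 0.1 and 1.19 ± 0.11).

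Clock genes fell together: 17 of 19 fell, none rose, and 13 fell by more than 2-fold, with a median of -2.53. Nr1d1, the repressor REV-ERB alpha, was at 55.8, 58.3, 66.5 and 59.4 CPM in 2D-2D and 678, 787, 767 and 776 CPM in Sort_Fib (log2 fold change -3.65 ± 0.1). Hlf, a PAR bZIP output factor, changed by -6.36 ± 0.22. The activator Arntl (BMAL1), named after its values were seen, was at 13.2 ± 0.727 CPM in 2D-2D and 19.4 ± 0.905 CPM in Sort_Fib. The labels give no time of day at collection. Of 8 glucocorticoid-responsive genes 6 fell and 2 rose. Tsc22d3 (GILZ), a direct target of the receptor, averaged 16.3 ± 1.66 CPM in 2D-2D and 224 ± 7.81 CPM in Sort_Fib (-3.78 ± 0.11), and Hsd11b1, which regenerates active glucocorticoid, changed by -4.97 ± 0.21.

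Metabolic lists rose for the most part. Of 23 glycolysis and hypoxia genes, 17 rose and 1 fell, and the list took 4.15 to 4.37% of counts in 2D-2D and 0.547 to 0.578% in Sort_Fib. Eno1, enolase, was at 7755, 7801, 8050.1 and 7378 CPM in the 2D-2D libraries and 389.5, 369, 389 and 412 CPM in the Sort_Fib libraries (log2 fold change 4.31 ± 0.16). Ldha, lactate dehydrogenase A, averaged 3523 ± 120.1 CPM in 2D-2D and 228 ± 9.03 CPM in Sort_Fib (3.95 ± 0.11). Vegfa, the hypoxia-responsive angiogenic factor, did not pass the test (log2 fold change 0.14 ± 0.12). Fitted on the 8 libraries alone its change was 0.18 and passed (adjusted p = 0.0215, edgeR's quasi-likelihood test), and with library size alone as the scaling it was -0.19 and did not. Pfkfb3, a regulator of glycolytic flux, was the gene that fell (-0.99 ± 0.16). Serine and asparagine synthesis genes, targets of the amino acid response factor ATF4, gave 10 higher and 2 lower of 13, with a median of 2.97. Asns, asparagine synthetase, was at 255, 248, 251 and 219 CPM in 2D-2D and 7.46, 5.301, 6.15 and 6.79 CPM in Sort_Fib (5.24 ± 0.14). Psat1, phosphoserine aminotransferase, changed by 5.07 ± 0.14. Slc7a11, the cystine transporter, fell (-1.38 ± 0.15).

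The protein synthesis and respiratory machinery rose by smaller amounts. All 34 cytosolic ribosomal protein genes rose, with a median of 1.36. Processed pseudogenes of these genes can share their reads, which makes values of individual members uncertain. Rps2 was at 5228, 5437, 5229.5 and 4803 CPM in 2D-2D and 805, 859, 871 and 870.5 CPM in Sort_Fib (log2 fold change 2.6 ± 0.09). Of 30 nuclear genes of the respiratory chain, 27 rose and 1 fell (median 1.1). Uqcrq, a complex III subunit, changed by 2.24 ± 0.11, and Sdha, the flavoprotein of complex II, was the gene that fell (-0.19 ± 0.07), a call lost in 3 of the 8 fits that leave out a library. These summed shares varied among the cultures themselves, from 2.87% in 2D-2D replicate 4 to 3.595% in replicate 1 for the ribosomal list, all above the 1.505 to 1.57% of Sort_Fib. Cholesterol synthesis genes gave 12 higher and 1 lower of 20. Fdps, farnesyl diphosphate synthase, changed by 2.6 ± 0.12, and Insig1, which restrains the pathway, by -0.41 ± 0.09. Of 17 NRF2 targets and metallothioneins, 13 rose and 4 fell. Hmox1, heme oxygenase 1, averaged 847 ± 59.6 CPM in 2D-2D and 90.3 ± 3.86 CPM in Sort_Fib (3.23 ± 0.16). It is also abundant in macrophages, whose markers moved in both directions as given above, and their part was not tested. Of 21 lysosome genes 12 rose and 5 fell, and of 18 genes of the ER chaperone and unfolded protein response list 11 rose and 6 fell. Trib3, a pseudokinase induced by amino acid and ER stress, changed by 3.08 ± 0.29, and Calr, the ER lectin chaperone calreticulin, by 1.71 ± 0.07.

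**Figure D4:**
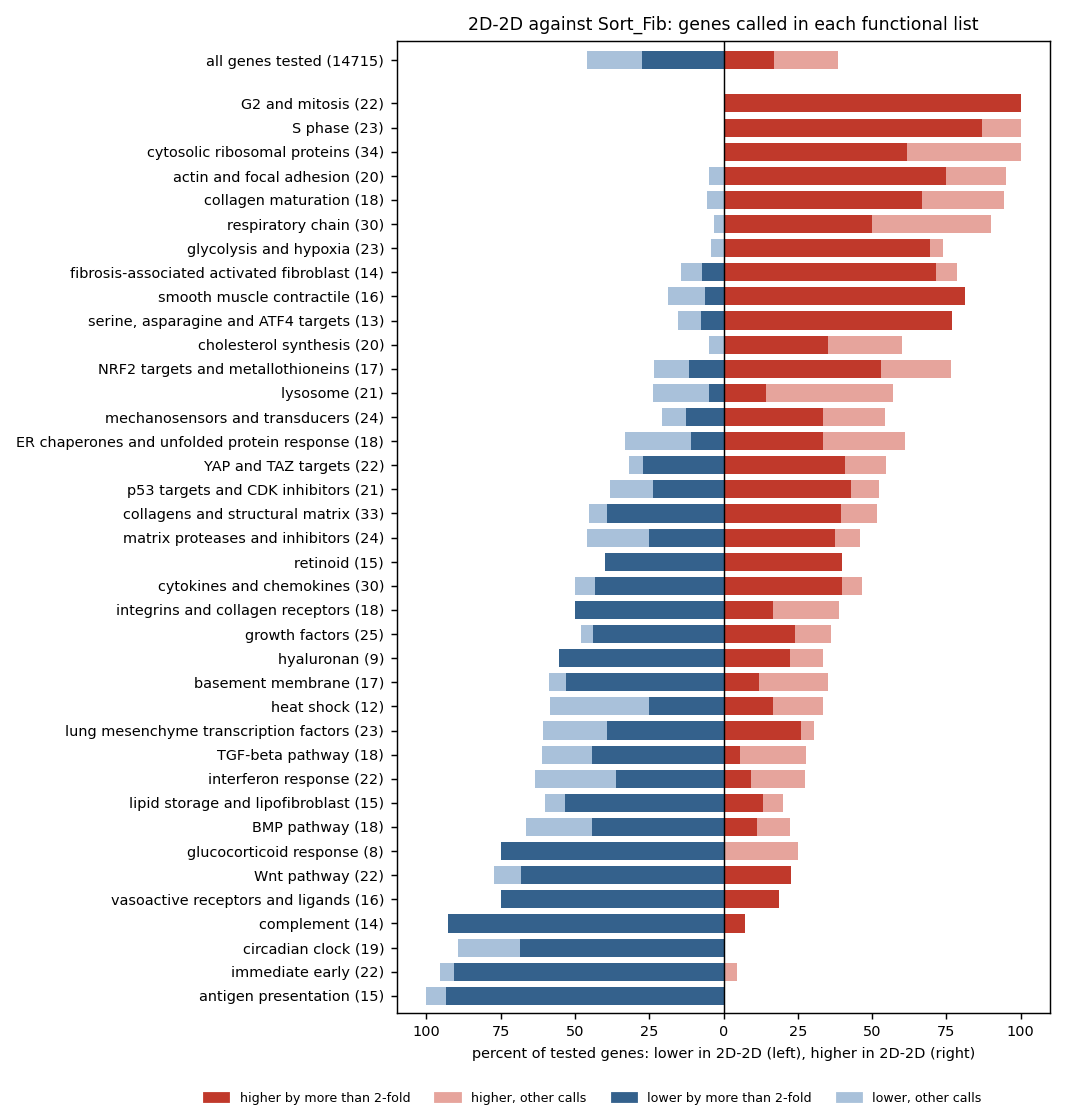
For each functional list (number of genes tested in brackets), the percent of tested genes called lower (left, blue) and higher (right, red) in 2D-2D than in Sort_Fib; dark parts are changes tested above 2-fold. Against the bar for all 14715 genes, cell cycle and ribosomal lists lie wholly on the right, and antigen presentation and the clock wholly on the left.

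All 15 antigen presentation genes fell, 14 by more than 2-fold. The class I genes H2-K1, H2-D1 and B2m, which most cells express, had log2 fold changes of -2.45, -2.32 and -1.41; they were chosen after their values were seen, and reads may be shared among class I genes. The class II genes belong to professional antigen-presenting cells. H2-Aa, a class II chain, was at 0.0580, 0.0571, 0.116 and 0 CPM in the 2D-2D libraries and 758, 773, 824 and 754 CPM in the Sort_Fib libraries, and its invariant chain Cd74 averaged 3.69 ± 0.197 CPM in 2D-2D and 3423 ± 179 CPM in Sort_Fib (log2 fold change -9.86 ± 0.22). Lymphocyte markers, including those of B cells that carry class II, fell beside them as given above, and their part was not tested. On the complement list, which does not hold the C1q chain genes, 13 of 14 tested genes fell and Masp1, a lectin pathway protease, rose, with a median of -3.46. C1qa, C1qb and C1qc, counted here as macrophage markers, rose as given above. C3, the central component, was at 114, 122, 121 and 151 CPM in 2D-2D and 2893, 2578, 2882 and 2949.99 CPM in Sort_Fib (-4.47 ± 0.12). C4b changed by -5.95 ± 0.13. C7, a pore-forming component, had no count in the 4 2D-2D libraries and averaged 417 ± 31.9 CPM in Sort_Fib, at least 9659-fold lower in 2D-2D when 3 counts in the 4 libraries are taken as the floor.

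Cytokines and chemokines gave 14 of 30 tested higher and 15 lower, near the 38.5% and 46.1% of all genes tested. Il1b, the inflammasome cytokine, averaged 1.39 ± 0.240 CPM in 2D-2D and 219 ± 9.35 CPM in Sort_Fib (log2 fold change -7.29 ± 0.18). Il6 was at 63.2, 57.2, 54.1 and 64.3 CPM in 2D-2D and 67.2, 80.6, 67.7 and 67.4 CPM in Sort_Fib. The cultures were all slightly lower, but the log2 fold change of -0.24 ± 0.22 did not pass the test (adjusted p = 0.3, edgeR's quasi-likelihood test). It passed under 2 alternatives in the same test: fitted on the 8 libraries alone it was -0.20 (adjusted p = 0.0233), and with library size alone as the scaling it was -0.57 (adjusted p = 0.029). Cxcl5, a neutrophil attractant, averaged 31.9 ± 2.69 CPM in 2D-2D and 0.194 ± 0.0641 CPM in Sort_Fib (7.31 ± 0.31), and the monocyte attractant Ccl7 changed by 3.91 ± 0.28. Ccl11 (eotaxin), which adventitial fibroblasts make, changed by -6.58 ± 0.23. Cxcl12, the stromal ligand of CXCR4, averaged 842 ± 63.2 CPM in 2D-2D and 204 ± 12.2 CPM in Sort_Fib (2.05 ± 0.08). Among 22 tested interferon response genes 6 rose and 14 fell.

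Developmental signalling lists leaned downward. Of 22 tested Wnt pathway genes, 5 rose and 17 fell. Wnt2, a ligand made by lung fibroblasts, averaged 0.302 ± 0.0752 CPM in 2D-2D and 38.2 ± 2.57 CPM in Sort_Fib (log2 fold change -6.95 ± 0.31). Axin2, a feedback target that reads out beta-catenin activity, was at 0.522, 0.914, 0.174 and 0.736 CPM in the 2D-2D libraries and 53.3, 54.2, 48.2 and 48.4 CPM in the Sort_Fib libraries (-6.42 ± 0.24). Frzb, a secreted Wnt antagonist, went up to 22.9 ± 3.15 CPM in 2D-2D, against 0.141 ± 0.0528 CPM in Sort_Fib (7.28 ± 0.25). BMP pathway genes gave 4 higher and 12 lower of 18, with Bmp3 at -8.98 ± 0.36 and the antagonist Fst (follistatin) at 4.23 ± 0.12 on the log2 scale. In the TGF-beta pathway 5 of 18 rose and 11 fell. The latent TGF-beta binding proteins diverged: Ltbp4, which also assembles elastic fibres, was at 42.7, 45.6, 46.04 and 50.6 CPM in 2D-2D and 3072, 3087, 2899 and 3257 CPM in Sort_Fib, while Ltbp2 averaged 658 ± 73.9 CPM in 2D-2D and 46.8 ± 2.18 CPM in Sort_Fib (-6.06 ± 0.14 and 3.82 ± 0.14).

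Of 16 tested genes for vessel-active hormones, their receptors and the enzyme Ace, 12 fell and 3 rose. Ace, angiotensin-converting enzyme, averaged 2.71 ± 0.178 CPM in 2D-2D and 1229 ± 51.1 CPM in Sort_Fib (log2 fold change -8.82 ± 0.17); lung endothelium is a known major source of it, and endothelial markers fell beside it, whose part was not tested. Adra1d, an alpha-1 adrenergic receptor, rose (3.46 ± 0.31). Growth factors (9 of 25 higher, 12 lower), integrins and collagen receptors (7 of 18 higher, 9 lower) and retinoid genes (6 of 15 higher, 6 lower) lay near the balance over all genes. Within them, Angpt1, the TIE2 ligand, changed by -5.31 ± 0.16. Itga5, the fibronectin receptor chain, averaged 1291 ± 77.97 CPM in 2D-2D and 101 ± 3.74 CPM in Sort_Fib (3.67 ± 0.1), against a change of -4.5 ± 0.16 for Itga8, the nephronectin receptor chain.

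The largest gains over the whole table, among genes with a mean of at least 10 CPM in a group and libraries that did not overlap, included genes already given (Mmp10, Cnn1, Grem1 and Cemip). Further ones were En1, Saa3, Garem2, Hmga2 and Ptprn. Saa3, an acute phase serum amyloid gene that fibroblasts and macrophages express, was at 1020.4, 968, 777 and 873 CPM in 2D-2D and 1.11, 1.64, 1.27 and 1.48 CPM in Sort_Fib (log2 fold change 9.36 ± 0.23). Hmga2, a chromatin protein of embryonic and transformed cells, was at 121, 136, 144 and 143 CPM in 2D-2D and 0.557, 0.196, 0.141 and 0.468 CPM in Sort_Fib (8.63 ± 0.21). En1, engrailed 1, a homeobox gene of embryonic dermal fibroblast lineages, averaged 20.8 ± 1.22 CPM in 2D-2D and had 1 count in all Sort_Fib libraries together.

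At the other end, Inmt and H2-Aa were joined by Ces1d, Sec14l3, Gimap4, Faim2, Cyp4b1, Clec14a, Jchain and Ly6c2. Several belong to other cells: Clec14a to endothelium, Gimap4 to lymphocytes and Jchain to antibody-secreting cells. Ces1d, a carboxylesterase on the alveolar fibroblast list, had 1 count in the 2D-2D libraries together and averaged 253 ± 15.6 CPM in Sort_Fib. Cyp4b1, a lung cytochrome P450, had 4 counts in 2D-2D and averaged 236 ± 19.5 CPM in Sort_Fib.

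Some genes were detected in a single group of the pair. No count was found in any 2D-2D library for 907 genes with more than 3 counts in Sort_Fib, and 426 of these were at least 10-fold lower by that floor. Beside C7, those with the highest summed counts were Ccl21a, a lymphatic chemokine whose near-identical copies make its count uncertain, and Clec3b (tetranectin), a secreted adventitial fibroblast product at 252, 239, 227 and 239 CPM in Sort_Fib, at least 5562-fold lower in 2D-2D. Conversely 163 genes had no count in Sort_Fib and more than 3 in 2D-2D, 23 of them at least 10-fold higher. Cck, the peptide hormone cholecystokinin, was at 358, 372, 344 and 276 CPM in the 2D-2D libraries and at 0 in all Sort_Fib libraries, at least 6363-fold higher. Hsd3b6, a steroid dehydrogenase, was at least 1404-fold higher, with the same caution for its close relatives, as for the unnamed predicted gene Gm21451.

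**Figure D5:**
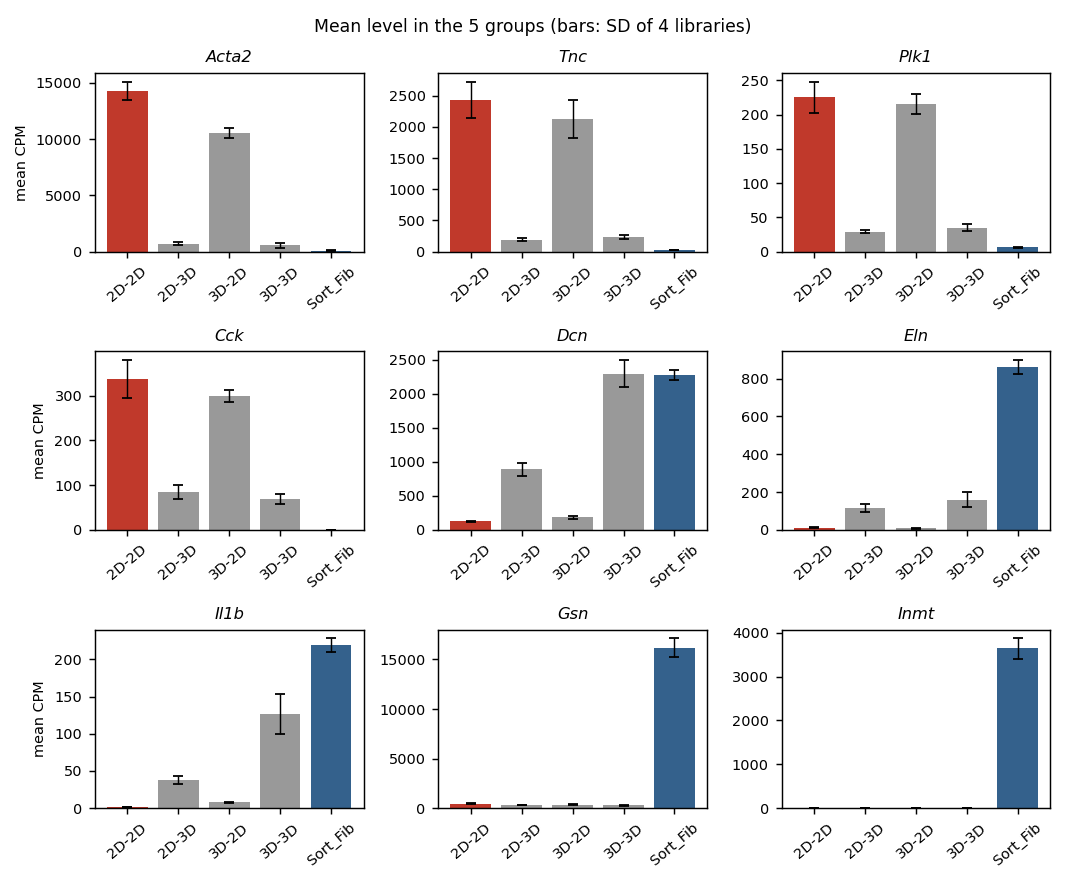
Mean level of 9 genes in the 5 groups of the study, in CPM on linear axes from 0, with 2D-2D first and Sort_Fib last; error bars are SD of 4 libraries. Acta2, Tnc, Plk1 and Cck are high in both groups that ended on plastic (2D-2D and 3D-2D), while Gsn and Inmt are low in all 4 cultures.

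The levels in 2D-2D were last set beside those of the other cultures. Against the mean of the other 3 cultures, 65.2% of the genes tested differed in 2D-2D, so these comparisons too are read by size. Acta2 averaged 14290.4 ± 803 CPM in 2D-2D, 722 ± 131 CPM in 2D-3D, 10547 ± 450.1 CPM in 3D-2D and 549 ± 208 CPM in 3D-3D (SD, n = 4 each). Its log2 fold change in 2D-2D minus the mean of those 3 was 3.15 (adjusted p = 1.54e-16, edgeR's quasi-likelihood test), and even the lowest of them was above the 98.9 ± 5.62 CPM of Sort_Fib. Cnn1 differed from that mean by 4.36, Tnc by 2.42, Plk1 by 1.89 and Cck by 1.49 on that scale. The mean covers unlike cultures. Plk1 averaged 225 ± 22.6 CPM in 2D-2D, 29.3 ± 1.75 CPM in 2D-3D, 216 ± 14.8 CPM in 3D-2D and 35.1 ± 5.74 CPM in 3D-3D. Levels in 3D-2D were also nearest to 2D-2D for Cnn1 (540.2 ± 25.9 CPM), Tnc (2128 ± 304 CPM) and Cck (299 ± 12.7 CPM); 2D-2D and 3D-2D were not tested against each other. Eln, Dcn, Il1b and Ace were lower in 2D-2D than the mean of the other cultures, by log2 fold changes of -2.19, -2.55, -4.56 and -4.22. Eln was not lower than in each of them: it averaged 11.3 ± 3.66 CPM in 2D-2D, against 117 ± 20.7 CPM in 2D-3D, 7.396 ± 1.28 CPM in 3D-2D and 158 ± 39.5 CPM in 3D-3D. Dcn, decorin, a small proteoglycan of collagen fibrils named after its values were seen, averaged 123 ± 13.1 CPM in 2D-2D and 184 ± 23.9 CPM in 3D-2D. It averaged 893 ± 94.8 CPM in 2D-3D, 2298 ± 203 CPM in 3D-3D and 2278 ± 72.9 CPM in Sort_Fib. Il1b and Ace averaged 1.39 ± 0.240 and 2.71 ± 0.178 CPM in 2D-2D and 7.50 ± 0.948 and 6.52 ± 0.476 CPM in 3D-2D. In 2D-3D they averaged 37.9 ± 5.36 and 161 ± 21.9 CPM, and in 3D-3D 126 ± 26.9 and 123 ± 28.9 CPM. Of the other cultures, 3D-2D was the nearest to 2D-2D for Dcn, Il1b and Ace.

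For other genes all 4 cultures lay on the same side of Sort_Fib. Inmt averaged 0.230 ± 0.165 CPM in 2D-2D, 1.63 ± 0.881 CPM in 2D-3D, 0.891 ± 0.336 CPM in 3D-2D and 3.75 ± 0.772 CPM in 3D-3D, all far below the 3645 ± 234 CPM of Sort_Fib. Gsn averaged 427 ± 36.1 CPM in 2D-2D and 326 ± 21.1, 342 ± 17.9 and 283 ± 49.2 CPM in 2D-3D, 3D-2D and 3D-3D. Pi16, Tcf21 and Timp3 differed between 2D-2D and the mean of the other cultures by -0.8, 0.55 and 0.71, small beside their changes from Sort_Fib. Fosb and Ltbp4 did not pass the test against that mean (adjusted p = 0.152 and 0.0565, edgeR's quasi-likelihood test). Grem1 and Saa3, near absent from Sort_Fib, were lower in 2D-2D than the mean of the other cultures (-0.87 and -0.97). Saa3 averaged 909 ± 107 CPM in 2D-2D, against 1790.3 ± 587 CPM in 2D-3D, 759 ± 46.1 CPM in 3D-2D and 4168 ± 401 CPM in 3D-3D, so its level was below those of the cultures that ended in a gel and not below that of 3D-2D. Col3a1, which overlapped between 2D-2D and Sort_Fib, averaged 5119.9 ± 856 CPM in 2D-3D, 1221 ± 145 CPM in 3D-2D and 4054 ± 562 CPM in 3D-3D.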

How the data were processed

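RNA of 20 mouse lung libraries was sequenced by the submitters. The deposited table holds expected counts per gene and library, made by the authors and not normalized; 5.98% of values are not whole (tolerance 1e-06), and they were rounded. HISAT and Bowtie2 are named with the build GRCm38.p6, per the submitters' processing notes, without their roles. The sources used here do not name the counting program, its strand setting or the annotation, so antisense neighbours may share reads. The 5 columns of group averages were not used. Of 67228 rows, 18012 held values, and 17888 matched RefSeq gene IDs. Plin2 stands in 2 rows.

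From the counts, edgeR 4.0.16 (R 4.3.3) was fitted to all 20 libraries by group, with filterByExpr, TMM scaling, the quasi-likelihood F test and Benjamini-Hochberg adjustment over 14715 genes. Changes above 2-fold were tested with glmTreat. A call needs an adjusted p below 0.05. Levels are CPM from TMM-scaled library sizes, and the standard error is the change divided by the square root of F. Depth was 11662513 to 20328950 counts per library. A test on simulated counts was run after the fit and used its estimates of the spread. DESeq2 1.42.0, limma 3.58.1 (voom), other scalings and filters, the 8 libraries alone, a replicate block and leaving out each library were the alternatives.

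The members and gene lists were chosen with earlier results of these data known. Genes were named by rule: the 10 largest changes each way with a mean of at least 10 CPM in a group, non-overlapping libraries and, as an addition to the rule, a count above 0 in both groups; up to 3 called members each way of each functional list; the 3 most abundant of each cell type list; a short preset list; and the 3 genes at 0 in a group with the highest counts in the other. Arg1, Arntl, B2m, C1qa, C1qb, C1qc, C3, Cd74, Cdc20, Chil3, Dcn, Etv5, H2-D1, H2-K1, Ldb3, Mmp12, Myh11, Myl9, Myocd, Pf4, Siglecf, Synpo2 and Wt1 fall outside it and were named after their values were seen. Some genes that the rule picks are not reported here. Median changes of the functional lists did not move to 2 decimals when genes with no count in a group were set at their bound. Promoter sequences are from RefSeq (GRCm38.p6).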

Additional observations from a re-analysis of the deposited data

Results flagged for a closer look

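In 372 groups of 4 libraries (each gene named and each cell type share, in 2D-2D and in Sort_Fib), a library was set apart 30 times because its gap to the nearest other library, as a share of the group's range, was over Dixon's 95% critical value for 4 samples. Chance gives about 1 in 20 such groups. That rate is for continuous values and does not apply to a gene with counts in a single library, which is always set apart. 2D-2D replicate 1 alone held a count of Ces1d, Gimap4 and Sec14l3, 1 count or 0.0580 CPM each, with the other 3 at 0. 2D-2D replicate 1 was the lowest for Pxn (201 CPM, the others 214 to 215 CPM). 2D-2D replicate 2 was the lowest for Csf3r (3.48 CPM, the others 4.29 to 4.45 CPM). 2D-2D replicate 3 was the highest for Myocd (0.347 CPM, the others 0 to 0.0580 CPM) and Pecam1 (1.504 CPM, the others 0.812 to 0.914 CPM). 2D-2D replicate 3 alone held counts of Ly6c2, 3 counts or 0.173 CPM, with the other 3 at 0. 2D-2D replicate 4 was the highest for Cxcl5 (35.9 CPM, the others 30.3 to 30.7 CPM), Mmp8 (158 CPM, the others 122 to 127 CPM) and Npnt (192 CPM, the others 132 to 141 CPM). 2D-2D replicate 4 alone held a count of Faim2, 1 count or 0.0566 CPM, with the other 3 at 0. 2D-2D replicate 4 was the lowest for Cd74 (3.395 CPM, the others 3.77 to 3.82 CPM), Psat1 (318 CPM, the others 368 to 378 CPM) and Tead2 (144 CPM, the others 165 to 168 CPM). Sort_Fib replicate 1 was the lowest for Hlf (35.5 CPM, the others 40.2 to 40.97 CPM) and Rps2 (805 CPM, the others 859.5 to 871 CPM). Sort_Fib replicate 2 was the highest for Il6 (80.6 CPM, the others 67.2 to 67.7 CPM). Sort_Fib replicate 2 alone held a count of En1, 1 count or 0.0654 CPM, with the other 3 at 0. Sort_Fib replicate 2 was the lowest for Acta2 (90.6 CPM, the others 101 to 103 CPM), Itga8 (487 CPM, the others 533 to 540 CPM), Ldha (215 CPM, the others 233 CPM) and Sec14l3 (129 CPM, the others 138 to 139 CPM). Sort_Fib replicate 3 was the highest for Dcn (2387 CPM, the others 2236 to 2245 CPM). Sort_Fib replicate 4 was the lowest for Ccl11 (57.9 CPM, the others 70.7 to 71.7 CPM), Mylk (445 CPM, the others 463 to 465 CPM), Prrx1 (33.3 CPM, the others 41.6 to 42.1 CPM) and Runx1 (99.1 CPM, the others 104 to 105 CPM). The alveolar fibroblast markers took 0.0555% of counts in 2D-2D replicate 4, above the 0.0413 to 0.0436% of the other 3. The mesothelial markers took 0.0251% of counts in 2D-2D replicate 2, below the 0.0257 to 0.0259% of the other 3.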

How the results depend on the processing

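Calls over all genes stayed within 1.5 times of the main counts in each of the 16 alternatives run. Leaving out each library in turn gave 5564 to 5721 genes higher and 6540 to 6837 lower, and 2425 to 2529 and 3901 to 4164 with a change above 2-fold. DESeq2 gave 5636 higher and 6809 lower, and limma-voom 5614 and 6759. The labels do not say whether replicate numbers pair the libraries. Correlations of same-numbered deviations were -0.135 to -0.015, against -0.135 to 0.190 for other pairs. Such weak correlations between unlike groups cannot decide it. With the replicate block, 5647 rose and 6752 fell. Of 56 list counts, 49 stayed within 1.5 times in all alternatives. The stricter filter, which tests fewer genes (12036), left members called lower at 5 for pericytes, 10 for lymphocytes, 3 for mast cells and basophils, 3 for red blood cells, and 0 each for Schwann cells, cardiac and skeletal muscle, and cartilage and bone. In the fit of the 8 libraries alone, 3 Schwann cell markers were called lower. Scaling by library size alone turned Vegfa to -0.19, which was not called, and took the medians of the protease, retinoid and general fibroblast lists to -0.31, -0.23 and -0.19. Of 168 genes named, 158 kept their direction and their side of the threshold in every alternative. Depth limits genes near 0 in a group, whose folds were given as bounds or not at all.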

Other observations

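Marker lists of the remaining cell types were mostly lower in 2D-2D than in Sort_Fib. Of 11 mesothelial markers 8 fell, but Wt1 and Aldh1a2, genes that mesothelial cells share with activated mesenchyme, rose (log2 fold changes 1.29 ± 0.32 and 3.86 ± 0.13). Of 12 alveolar type 2 markers 10 fell. Sftpc, surfactant protein C, averaged 0.533 ± 0.271 CPM in 2D-2D and 493 ± 25.1 CPM in Sort_Fib. Etv5, an ETS factor downstream of FGF signalling that is on the same list, rose (2.6 ± 0.1). All 10 alveolar type 1 and all 5 tested red blood cell markers fell, as did 7 of 8 tested mast cell and basophil markers and all 5 tested Schwann cell and nerve markers. Of 7 tested cardiac and skeletal muscle genes 4 fell and 1 rose. That gene was Acta1, skeletal alpha actin, another actin of the SRF target class, at 24.8, 28.1, 27.2 and 18.6 CPM in the 2D-2D libraries and 0.348, 0.131, 0.283 and 0.234 CPM in the Sort_Fib libraries (6.6 ± 0.53).

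Some genes known from activated macrophages rose in 2D-2D, beside macrophage markers that moved in both directions. These genes were picked after their values were seen. Arg1, arginase 1, averaged 538 ± 39.6 CPM in 2D-2D and 1.63 ± 0.417 CPM in Sort_Fib (log2 fold change 8.35 ± 0.28). Pf4, platelet factor 4, averaged 404 ± 10.9 CPM in 2D-2D and 3.97 ± 0.588 CPM in Sort_Fib (6.66 ± 0.11), and Mmp12, macrophage elastase, 275 ± 27.9 CPM in 2D-2D and 9.81 ± 1.93 CPM in Sort_Fib (4.81 ± 0.18). All 3 were lower in 2D-2D than the mean of the other 3 cultures, by log2 fold changes of -2.02, -1.39 and -1.04, although Mmp12 averaged 261 ± 28.96 CPM in 3D-2D. Cartilage and bone genes gave 1 higher and 2 lower of 4 tested.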
